A study of Drosophila melanogaster with 36 samples.

Results

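The peroxins of peroxisome biogenesis were followed in Drosophila S3 cells, an embryonic cell line, as 9 genes of the 17142 counted: Pex2, Pex5, Pex7, Pex10, Pex11, Pex13, Pex14, Pex16 and Pex19. Members were taken by their FlyBase symbol or synonym. Pex11 is today a synonym of both Pex11ab (FBgn0034058) and Pex11c. The row used here as Pex11 is Pex11ab, and Pex11c was kept with the other peroxins. RNA-Seq was performed after 4 h on 36 libraries in 10 groups. Of these groups, 2 had no DMSO and were grown without oleic acid (noOA, 6 libraries) or with 200 µM oleic acid (OA, 6 libraries). The others received 0.1% DMSO, with 3 libraries each. They were solvent controls without oleic acid (vehicle noOA) and with oleic acid (vehicle OA), and cells with 200 µM oleic acid and 1 µM of a small molecule derivative. Each of 3 chemotypes (CTs) of lipid storage inhibitors was represented by an active derivative (THI-4 for CT1, TPE-69 for CT2, AU-6 for CT3) and by one with little or no activity (THI-68, TPE-67 and AU-73).

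Peroxisomes are organelles that oxidise very long and branched fatty acids and break down hydrogen peroxide. Peroxins build them. Pex3, Pex16 and Pex19 place proteins in the peroxisomal membrane, Pex5 and Pex7 are import receptors for matrix enzymes, Pex13 and Pex14 dock these receptors, Pex2 and Pex10 belong to a ubiquitin ligase that marks Pex5 for recycling, Pex6 is an ATPase that helps to extract it, and Pex11 proteins elongate the organelle before division. Several of these roles were worked out in yeast and mammals.

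Total counts ranged from 1208200 to 9548314 per library, with a median of 5005547, and a single 18S rRNA pseudogene took between 34.7% and 51.5% of them. Libraries stood apart in both solvent control groups. Vehicle noOA replicate 1 (1314250 counts) and vehicle OA replicate 3 (1208200 counts) were not among the 22 libraries that match the study's per-sample values. They were left out of the tests, so 2 libraries of each solvent control group remained. The noOA and OA libraries were not among these 22 either, but all of them were kept. The FPKM values of the 2 libraries left out and of noOA replicate 1 (1766556 counts) were low, with Pex14 at 12.7, 18.2 and 19.0 FPKM. For Pex14 the CPM values of these libraries lay near those of their groups, but not for every member. Pex10 was at 11.07 CPM in noOA replicate 1, with the next library at 8.941 CPM. Pex2 in vehicle OA replicate 3 lay above both vehicle OA libraries kept. Of the markers of other cell types, those of fat body summed to at most 0.192 FPKM and those of muscle to at most 1.66 FPKM, with all members under 1 FPKM in the median library. Neuron markers summed to between 1.17 and 7.97 FPKM, with nSyb under 1. Hemocyte markers summed to between 159 and 940 FPKM, with NimC1 under 1. The labels number the replicates without saying that they were separate cultures, so p-values measure the spread between these libraries, which may be technical.

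Levels of different genes can be compared in FPKM, which is per length of transcript. Over the 34 libraries kept, Pex14 was highest, with a median of 54.4 FPKM (range 19.0 to 116), followed by Pex19 at 49.5 (19.1 to 65.1) and Pex11 at 40.9 (16.4 to 63.6). Pex13 had a median of 26.0 FPKM (9.89 to 42.9), Pex16 16.9 (11.3 to 26.2), Pex2 13.6 (6.80 to 25.6), Pex10 11.1 (7.09 to 21.2) and Pex5 6.99 (2.69 to 11.7). The ranges of all neighbours in this order overlapped, except that of Pex7 with the next gene above it. Among the other peroxins, Pex3 (18.8 FPKM), Pex6 (8.93) and Pex11c (5.35) had medians between those of Pex13 and Pex7. This order pools the groups and turned within some of them: without oleic acid Pex19 was above Pex14, with medians of 46.3 and 40.7 FPKM in noOA and of 48.6 and 41.4 FPKM in vehicle noOA. The docking protein Pex14 and the membrane protein receptor Pex19 thus had the highest medians over these libraries, and the import receptor Pex5 was lowest of the members with reads in every library.

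Pex7, in yeast and mammals the receptor for an import signal that Pex5 does not read, had 2 reads in all 36 libraries. There was 1 read each in OA replicate 1 and vehicle noOA replicate 3. The other 34 libraries had 0 reads, which allows up to 0.314 CPM in the deepest and up to 2.48 CPM in the shallowest of them, by counting error only. Its deposited FPKM was nevertheless above 0 in some groups without a counted read. It reached 0.284 FPKM with inactive CT1 and 0.302 FPKM with inactive CT3. The cause was not tested. Pex7 was not tested, and the counts of members below are over the 8 that passed the filter on low counts.

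The main comparison asked which peroxins change when OA-fed cells receive an active derivative. All 8 members tested were above vehicle OA with each of the 3 active derivatives in fitted log2 fold change. Of all genes, 48.8%, 51.1% and 49.9% were above it with active CT1, CT2 and CT3, and the share above it with all 3 was not computed. With active CT1, 6 of them rose at an adjusted p under 0.05 (edgeR's quasi-likelihood test with Benjamini-Hochberg adjustment over all genes): Pex2, Pex10, Pex13, Pex14, Pex16 and Pex19. Of all 7522 genes tested, 7.48% rose in this comparison. With active CT3, 4 rose (Pex2, Pex13, Pex14 and Pex19), beside 4% of all genes, and with active CT2 the 2 genes Pex14 and Pex19 rose, beside 1.97% of all genes. The median log2 fold change of the 8 members was 0.54 with active CT1, 0.47 with active CT3 and 0.27 with active CT2, while the median of all genes was -0.01, 0.00 and 0.00. Since RNA of whole cultures was measured, more peroxin RNA per cell and more cells of a kind rich in it cannot be told apart.

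**Figure D1:**
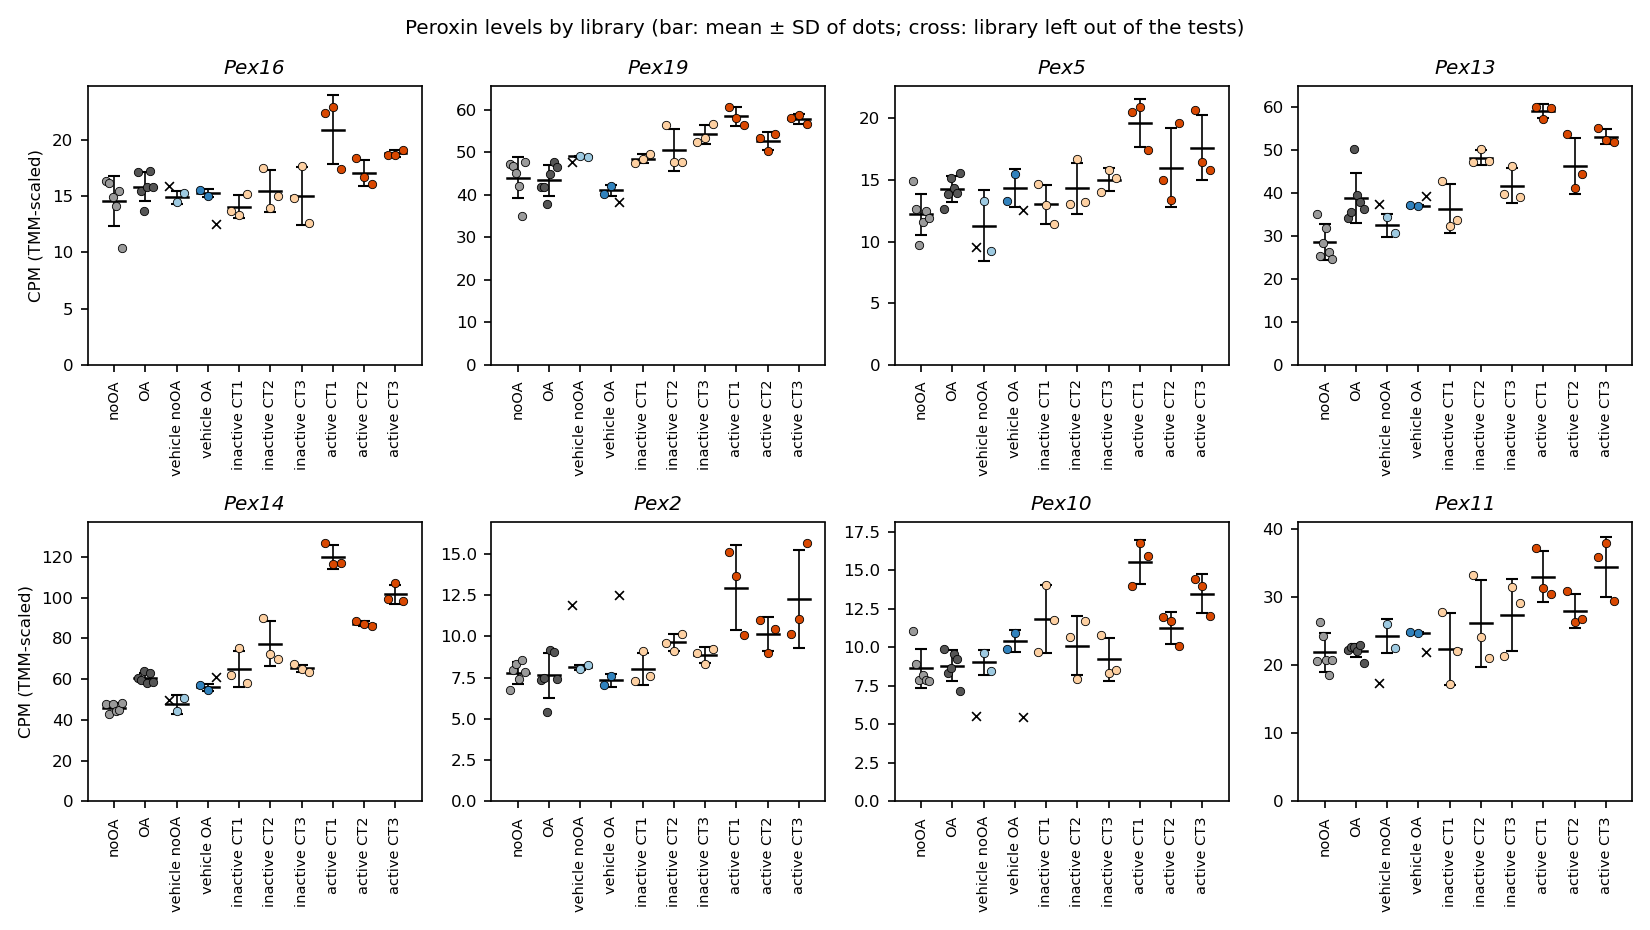
Levels of the 8 peroxins with reads in every library, in CPM scaled by edgeR's TMM factors, for each library of the 10 groups. Dots are libraries used in the tests, lines and bars their mean ± SD, and crosses the 2 libraries left out; Pex14 with active CT1 lies between 116 and 127 CPM, above every other library.

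The docking proteins Pex13 and Pex14 form the site at the membrane to which loaded Pex5 binds. In the 2 vehicle OA libraries Pex14 (FBgn0037020) was at 57.1 and 54.8 CPM, and in the 2 vehicle noOA libraries at 44.4 and 50.9 CPM. It was at 127, 116 and 117 CPM with active CT1, at 88.5, 87.1 and 86.2 CPM with active CT2, and at 99.5, 107 and 98.4 CPM with active CT3. No library with an active derivative overlapped with vehicle OA, and those of the 3 active derivatives did not overlap with each other. Pex14 rose 2.15-fold with active CT1 (95% interval 1.89 to 2.45, adjusted p = 1.98e-12 from edgeR), 1.83-fold with active CT3 (1.60 to 2.09, adjusted p = 7.47e-09) and 1.58-fold with active CT2 (1.38 to 1.81, adjusted p = 7.4e-06). All 3 calls held under every alternative run, with adjusted p of at most 0.0119.

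Pex13 (FBgn0033812), the partner of Pex14 in docking, was at 37.0 and 36.9 CPM in vehicle OA. Its libraries were at 60.0, 57.1 and 59.7 CPM with active CT1 and at 55.0, 52.2 and 51.8 CPM with active CT3, all above vehicle OA. The rise was 0.67 on the log2 scale with CT1 (standard error 0.106, adjusted p = 5.92e-06 from edgeR) and 0.52 with CT3 (standard error 0.112, adjusted p = 0.00163), the latter not called in limma or without vehicle OA replicate 2. With active CT2, at 53.5, 41.0 and 44.2 CPM, the libraries also lay above vehicle OA, but the log2 fold change of 0.34 (95% interval 0.11 to 0.57) was not called (adjusted p = 0.148). The ratio of Pex14 to Pex13, taken in FPKM within each library, was 1.80 to 1.93 in vehicle OA, 2.56 to 2.71 with active CT1, 2.31 to 2.61 with active CT3 and 2.103 to 2.64 with active CT2. By this ratio, Pex14 was further above Pex13 in all 9 libraries with an active derivative than in vehicle OA, while the inactive derivatives, at 1.72 to 3.02, overlapped with both. The other controls lay at 1.86 to 2.44 (noOA), 1.76 to 2.29 (OA) and 1.72 to 2.14 (vehicle noOA), below active CT1 but overlapping with active CT2 and, for noOA, with active CT3.

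For membrane assembly, Pex19 is the soluble receptor and chaperone of membrane proteins, and Pex16 helps bring it and its partner Pex3 to the membrane. Pex19 (FBgn0032407) was at 40.1 and 42.01 CPM in vehicle OA, at 60.7, 58.1 and 56.4 CPM with active CT1, at 53.3, 50.2 and 54.3 CPM with active CT2 and at 57.9, 58.8 and 56.6 CPM with active CT3. Apart from Pex14 it was the one member called with all 3 active derivatives, with log2 fold changes of 0.51, 0.37 and 0.49 for CT1, CT2 and CT3. The standard errors were 0.0870, 0.0903 and 0.0905 (adjusted p = 2.4e-05, 0.0139 and 1.77e-04 from edgeR). Pex19 was also higher in vehicle noOA, at 49.1 and 48.9 CPM, and with the inactive derivatives, at 47.4 to 56.7 CPM over 9 libraries, so the vehicle OA libraries were the lowest of those with DMSO that were tested. Limma lost the calls with CT2 and CT3, and that with CT2 was also lost with DESeq2 and without vehicle OA replicate 1 or 2 or active CT2 replicate 1 or 3.

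Pex16 (FBgn0037019) was at 15.5 and 15.0 CPM in vehicle OA and at 22.4, 23.0 and 17.4 CPM with active CT1, with no overlap. It rose by 0.48 on the log2 scale with active CT1 (standard error 0.145, adjusted p = 0.0213 from edgeR). The call was lost with DESeq2, with limma, and without vehicle OA replicate 1 or 2 or active CT1 replicate 1 or 2 (adjusted p from 0.00502 to 0.297 over all alternatives). Its log2 fold change was 0.17 with active CT2 and 0.31 with active CT3, and neither was called. Pex16 and Pex14 are neighbours on chromosome arm 3L, transcribed away from each other with no gene reaching between them in the BDGP6 annotation. The FPKM ratio of Pex14 to Pex16 within a library was 2.85 to 2.92 in vehicle OA, 4.18 to 5.80 with active CT1, 3.77 to 4.10 with active CT2 and 3.92 to 4.48 with active CT3. With the inactive derivatives it was 3.09 to 4.27, so all 18 libraries with a derivative lay above vehicle OA in this ratio. Controls without DMSO, at 1.64 to 3.52 (noOA) and 2.77 to 3.86 (OA), also reached above vehicle OA and overlapped with inactive derivatives and, for OA, with active CT2.

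Pex5 (FBgn0023516), the receptor that carries most matrix enzymes, was at 13.3 and 15.4 CPM in vehicle OA and at 20.5, 20.9 and 17.4 CPM with active CT1. These libraries did not overlap, but the log2 fold change of 0.45 (95% interval 0.12 to 0.79) was not called (adjusted p = 0.0714 from edgeR). Its log2 fold changes with the active derivatives of CT2 and CT3 were 0.16 and 0.25. Without a filter on low counts, and with all mapped libraries, Pex5 was called with active CT1 as well.

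Of the ubiquitin ligase, Pex2 and Pex10 are members and were among the low peroxins. Pex2 (FBgn0035876) was at 7.07 and 7.62 CPM in vehicle OA, at 15.1, 13.6 and 10.1 CPM with active CT1, at 10.98, 9.003 and 10.5 CPM with active CT2 and at 10.1, 11.03 and 15.7 CPM with active CT3. It rose by 0.84 on the log2 scale with CT1 (standard error 0.203, adjusted p = 0.00285 from edgeR) and by 0.82 with CT3 (standard error 0.212, adjusted p = 0.0135), while 0.47 with CT2 was not called. Its 3 libraries with active CT3 differed more among themselves than those of Pex14, and without the highest of them, active CT3 replicate 3, the call was lost (adjusted p = 0.298, with a range of 0.00627 to 0.304 over all alternatives). It was also lost with DESeq2, with limma and without vehicle OA replicate 1 or 2, and the call with CT1 without vehicle OA replicate 2. The vehicle OA library left out had 12.5 CPM, above both libraries kept.

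Pex10 (FBgn0035233) was at 9.89 and 10.9 CPM in vehicle OA and at 13.9, 16.7 and 15.9 CPM with active CT1. It rose by 0.57 on the log2 scale with active CT1 (standard error 0.174, adjusted p = 0.0239 from edgeR), a call lost with DESeq2, with limma without a filter, and without vehicle OA replicate 1 or 2 or active CT1 replicate 2. With active CT2 and CT3 its log2 fold changes were 0.11 and 0.34, and it was not called. For Pex11 (FBgn0034058), the elongation factor, vehicle OA was at 24.9 and 24.7 CPM, active CT1 at 37.3, 31.3 and 30.5 CPM and active CT3 at 36.01, 38.0 and 29.5 CPM. Its log2 fold changes were 0.42 with active CT1, 0.45 with active CT3 and 0.19 with active CT2, and none was called (adjusted p = 0.0782, 0.128 and 0.844 from edgeR). Pex11 was called with active CT1 and with active CT3 in the fit without a filter on low counts and in that of the compared groups alone, and with all mapped libraries for CT1 only.

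These 3 comparisons share the same 2 vehicle OA libraries. Without vehicle OA replicate 2, 3 members were called with active CT1 (Pex13, Pex14 and Pex19), 2 with active CT3 and 1 with active CT2, while the calls over all genes fell from 912 to 489, from 366 to 193 and from 153 to 74. Limma on log2(FPKM + 1) called 5, 1 and 1 members. With active CT1 it also called fewer of all genes, 435 and not 912.

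**Figure D2:**
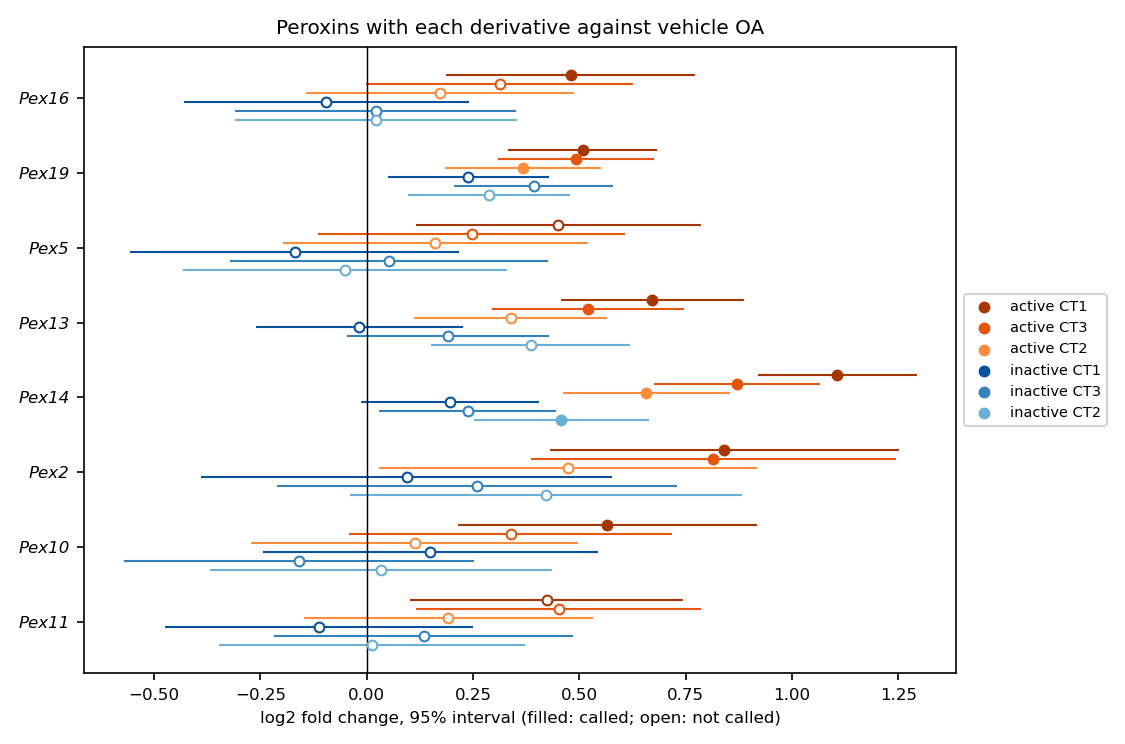
Log2 fold changes of 8 peroxins against vehicle OA for the 3 active (orange) and 3 inactive (blue) derivatives, with 95% intervals from edgeR. Filled symbols passed an adjusted p under 0.05; Pex14 lies furthest to the right, at 1.11, 0.87 and 0.66 with active CT1, CT3 and CT2.

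The inactive derivatives, at the same dose and time, were compared with vehicle OA in the same way. Pex14 was at 61.8, 75.1 and 58.2 CPM with inactive CT1, at 90.2, 72.4 and 69.7 CPM with inactive CT2 and at 67.2, 65.2 and 63.3 CPM with inactive CT3. All 9 libraries lay above vehicle OA. The 6 OA libraries without DMSO or compound, at 58.1 to 64.1 CPM, lay above vehicle OA as well, and overlapped with inactive CT1 and inactive CT3. With inactive CT2, 3 of 8 members had an unadjusted p under 0.05 from edgeR. Pex14 with inactive CT2 was the one call among members (log2 fold change 0.46, standard error 0.102, adjusted p = 0.0133 from edgeR), beside 0.585% of all genes that rose with it. This call was lost without either vehicle OA library, without inactive CT2 replicate 1, in a fit of the compared groups alone and in limma on log2(FPKM + 1), with adjusted p of up to 0.652. With inactive CT1, 0 of 8 members and 0% of all genes were called by edgeR, 1 member (Pex19) had an unadjusted p under 0.05, and DESeq2 and limma called 0 members. With inactive CT3, 0 of 8 members were called by edgeR beside 0.0133% of all genes, Pex14 and Pex19 had an unadjusted p under 0.05, and DESeq2 and limma called 0. The median log2 fold changes of the members were 0.04, 0.16 and 0.16 for inactive CT1, CT2 and CT3, beside 0.00, 0.01 and 0.01 for all genes.

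The active and the inactive derivative of one chemotype were then compared directly, in 3 pairs. For CT1, 7 of 8 members were called higher with THI-4 than with THI-68, beside 8.42% of all genes. All 8 were above 0, beside 47.2% of all genes, and all 8 had an unadjusted p under 0.05 from edgeR. Pex14 differed by 0.91 on the log2 scale (standard error 0.0790, adjusted p = 3.96e-12 from edgeR), Pex2 by 0.75, Pex13 by 0.69, Pex5 by 0.62, Pex16 by 0.57, Pex11 by 0.54 and Pex19 by 0.27. Pex5, at 14.6, 12.99 and 11.4 CPM with inactive CT1, and Pex11, at 27.9, 17.2 and 22.1 CPM, were thus called against the inactive derivative but not against vehicle OA. Pex10 was also higher but was not called, at 0.42 (95% interval 0.11 to 0.72, adjusted p = 0.0595 from edgeR). It was at 9.68, 14.04 and 11.8 CPM with inactive CT1. The Pex11 call was lost without active CT1 replicate 1 or inactive CT1 replicate 2 or 3, that of Pex5 without inactive CT1 replicate 3, and that of Pex19 without active CT1 replicate 1 or inactive CT1 replicate 1 and with DESeq2. Limma lost Pex16 and Pex19 in all 3 settings, and without a filter it called only Pex13 and Pex14.

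For CT3, Pex13 and Pex14 were called higher with AU-6 than with AU-73, beside 3.12% of all genes. All 8 members tested were above 0, beside 49.4% of all genes, and 6 had an unadjusted p under 0.05 from edgeR. Pex14 differed by 0.63 on the log2 scale (standard error 0.0830, adjusted p = 3.71e-07 from edgeR) and Pex13 by 0.33 (standard error 0.0969, adjusted p = 0.0443). Pex13 was at 39.6, 46.3 and 38.9 CPM with inactive CT3, below all 3 libraries with active CT3. Its call was lost with DESeq2, with limma and without each single library of the pair except inactive CT3 replicate 2, with adjusted p of up to 0.630 over all alternatives. Pex19 was at 52.4, 53.4 and 56.7 CPM with inactive CT3, which overlapped with active CT3, and its difference of 0.10 had an interval of -0.06 to 0.25.

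For CT2, 0 of 8 members were called between TPE-69 and TPE-67 by edgeR, beside 2.49% of all genes, and DESeq2 and limma called 0. Pex14 differed by 0.20 on the log2 scale (95% interval 0.03 to 0.37, unadjusted p = 0.0197) and was the one member with an unadjusted p under 0.05. Of its CT2 libraries, inactive replicate 1 at 90.2 CPM lay above all 3 active ones, and without it Pex14 was called. Pex13, at 47.0, 50.1 and 47.3 CPM with inactive CT2, was at a log2 difference of -0.05 (95% interval -0.24 to 0.15). The intervals of Pex2 (-0.32 to 0.42), Pex5 (-0.11 to 0.53), Pex10 (-0.26 to 0.42), Pex11 (-0.12 to 0.48), Pex16 (-0.13 to 0.43) and Pex19 (-0.08 to 0.24) also included 0. These intervals leave room for differences in either direction, and a p that misses the threshold does not show that the CT2 derivatives act alike.

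Between the active derivatives, 3 pairs were compared. Against active CT2, active CT1 was called higher in Pex10 (log2 difference 0.45, adjusted p = 0.0341 from edgeR), Pex13 (0.33, adjusted p = 0.0067) and Pex14 (0.45, standard error 0.0725, adjusted p = 1.45e-05), beside 5.48% of all genes. All 8 members were above 0, beside 49.8% of all genes, and 6 had an unadjusted p under 0.05. Pex10 was at 12.0, 11.7 and 10.1 CPM with active CT2, all below active CT1. The Pex10 call was lost with DESeq2, with limma and without each single library compared except active CT1 replicate 1, and the Pex13 call with limma and without active CT2 replicate 2 or 3. Active CT1 against active CT3 gave the call of Pex14 alone, at 0.24 (95% interval 0.09 to 0.38, adjusted p = 0.0489), beside 2.98% of all genes, and this call was lost with DESeq2, with limma and without each single library compared except active CT3 replicate 2. Active CT3 against active CT2 gave 0 calls by edgeR, DESeq2 or limma, beside 0.465% of all genes, with Pex2 (0.34) and Pex14 (0.21) at an unadjusted p under 0.05. Every member was lowest with active CT2 in its fitted fold change against vehicle OA, and for 7 of 8 the order was CT1, CT3, CT2, with Pex11 as the exception. The share of all genes with this order was not computed, so it is not shown to be particular to peroxins. Calls over all genes against vehicle OA fell in the same order, at 912, 366 and 153.

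A further comparison asked how the peroxins respond to oleic acid itself. Without DMSO, where 6 libraries stood against 6, Pex13 and Pex14 rose, beside 6.68% of all 7546 genes tested. Pex14 lay between 42.7 and 48.3 CPM without oleic acid (median 46.3) and between 58.1 and 64.1 CPM with it (median 60.0), so the libraries did not overlap. The rise was 0.39 on the log2 scale (standard error 0.0532, adjusted p = 1.59e-06 from edgeR). Pex13 lay between 24.7 and 35.1 CPM (median 27.2) without and between 34.1 and 50.1 CPM (median 36.97) with oleic acid, a small overlap, and rose by 0.42 on the log2 scale (standard error 0.0822, adjusted p = 5.0e-04). The other 6 members tested had log2 fold changes from -0.04 (Pex2) to 0.26 (Pex5), and none was called. Both calls held without any one of the 12 libraries. Limma on log2(FPKM + 1) called 0 members, and 2, the same genes, once noOA replicate 1 with its low FPKM values was left out, an alternative chosen after seeing the data.

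With DMSO, 2 libraries against 2, 0 members were called for oleic acid by edgeR, beside 6.45% of all genes, and DESeq2 and limma called 0. Pex19 alone had an unadjusted p under 0.05, at a log2 fold change of -0.26 (95% interval -0.46 to -0.06). Pex14 was at 0.22 (-0.01 to 0.46) and Pex13 at 0.18 (-0.08 to 0.45). The difference between the oleic acid responses with and without DMSO was itself tested, with 0 members and 0% of all genes called by edgeR, no member at an unadjusted p under 0.05, and 0 members by DESeq2 or limma. Its interval was -0.39 to 0.06 for Pex14 and -0.58 to 0.12 for Pex13. DMSO on its own, as vehicle noOA against noOA (0.0133% of all genes called) and as vehicle OA against OA (0% called), gave 0 calls of members by edgeR, DESeq2 or limma and none at an unadjusted p under 0.05.

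**Figure D3:**
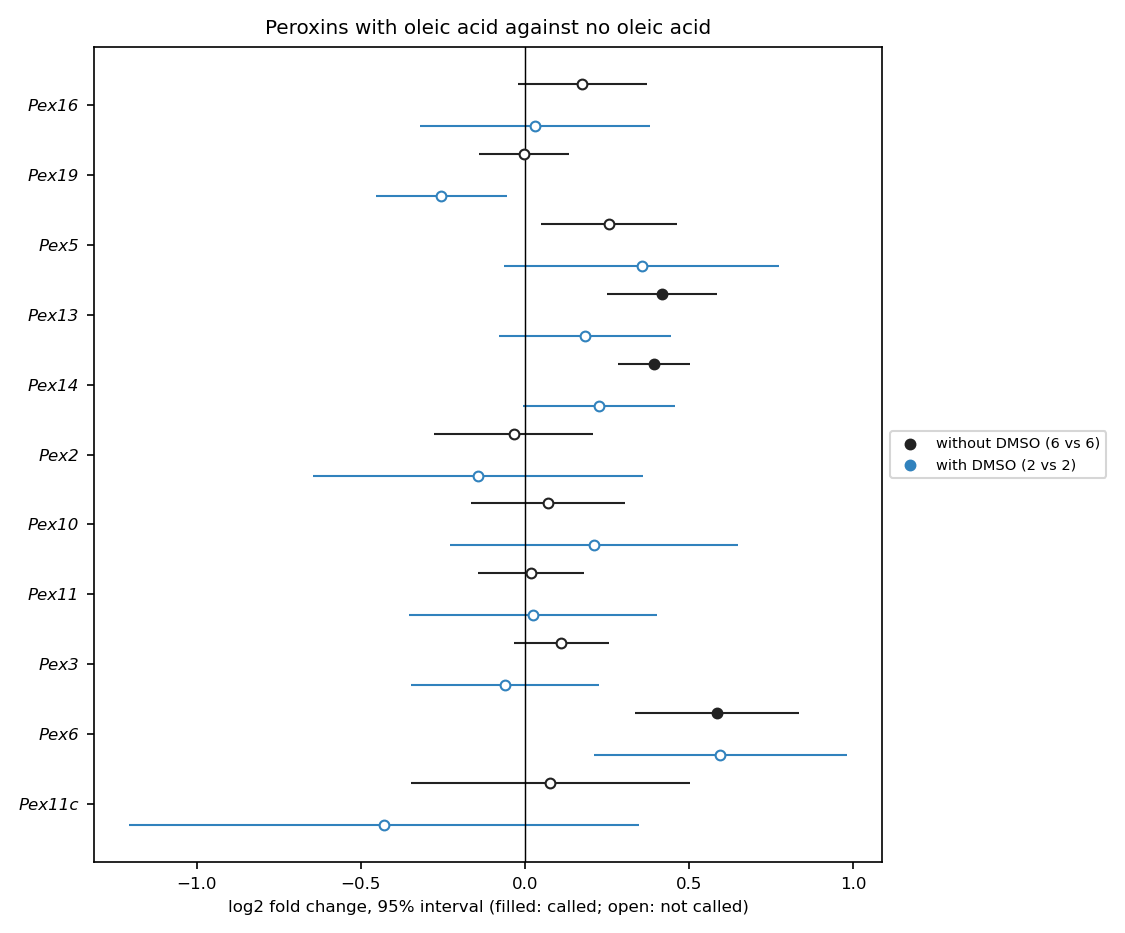
Log2 fold changes with oleic acid against no oleic acid for the peroxins tested and Pex3, Pex6 and Pex11c, without DMSO (black, 6 libraries against 6) and with DMSO (blue, 2 against 2), with 95% intervals from edgeR. Filled symbols passed an adjusted p under 0.05; without DMSO these are Pex13 (0.42), Pex14 (0.39) and Pex6 (0.58), and with DMSO there are none.

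Of the other peroxins, Pex3, Pex6 and Pex11c are described, and Pex23 was not analysed here. Pex6, an ATPase that pulls Pex5 back out of the membrane, was at 19.8 and 19.4 CPM in vehicle OA and at 41.1, 37.3 and 38.4 CPM with active CT1. It was called with all 3 active derivatives, with log2 fold changes of 0.99, 0.64 and 0.79 for CT1, CT2 and CT3 (standard errors 0.139, 0.148 and 0.148; adjusted p = 5.56e-07, 0.00671 and 2.38e-04 from edgeR), and with oleic acid without DMSO (0.58). Pex3, the membrane anchor of Pex19, rose with active CT1 (0.52, adjusted p = 0.00182). With the active derivatives of CT2 and CT3, Pex3 was at 0.32 and 0.39 and was not called (adjusted p = 0.283 and 0.077). Pex11c, with 1.39 to 4.80 CPM over the libraries kept, was not called in any comparison.

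The cargo of the import machinery was read from a list of 18 peroxisomal enzymes and transporters, of which 16 were tested. With the active derivatives of CT1, CT2 and CT3, 12, 7 and 12 of them rose, beside 7.48%, 1.97% and 4% of all genes. The inactive derivatives gave 0, 5 and 0 calls among the 16 (edgeR, with 0, 8 and 4 at an unadjusted p under 0.05), the 5 with inactive CT2 beside 0.585% of all genes. Oleic acid without DMSO gave 10, beside 6.68%. The list medians were 0.76, 0.39 and 0.69 on the log2 scale, each above that of the 8 peroxins. The genes called with all 3 were CG12428 (the carnitine octanoyltransferase CROT), the acyl-CoA oxidases CG5009, CG9707 and CG9709, CG9319 (the racemase Amacr), Mfe2 (a beta-oxidation enzyme of several functions) and Pmp70 (a fatty acyl-CoA transporter of the membrane). CG9709 was highest with active CT1 (1.59) and active CT2 (1.09), and CG9319 with active CT3 (1.47). The lowest of the list were CG17544 with active CT1 (0.01), CG2316 with active CT2 (0.08) and Dhap-at with active CT3 (0.09). Of the fission genes Drp1, Fis1 and Tango11, which also divide mitochondria, 0 of 3 were called by edgeR with any active derivative and 0 of 3 had an unadjusted p under 0.05. Their log2 fold changes ran from -0.03 (Fis1 with active CT2) to 0.15 (Drp1 with active CT1).

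**Figure D4:**
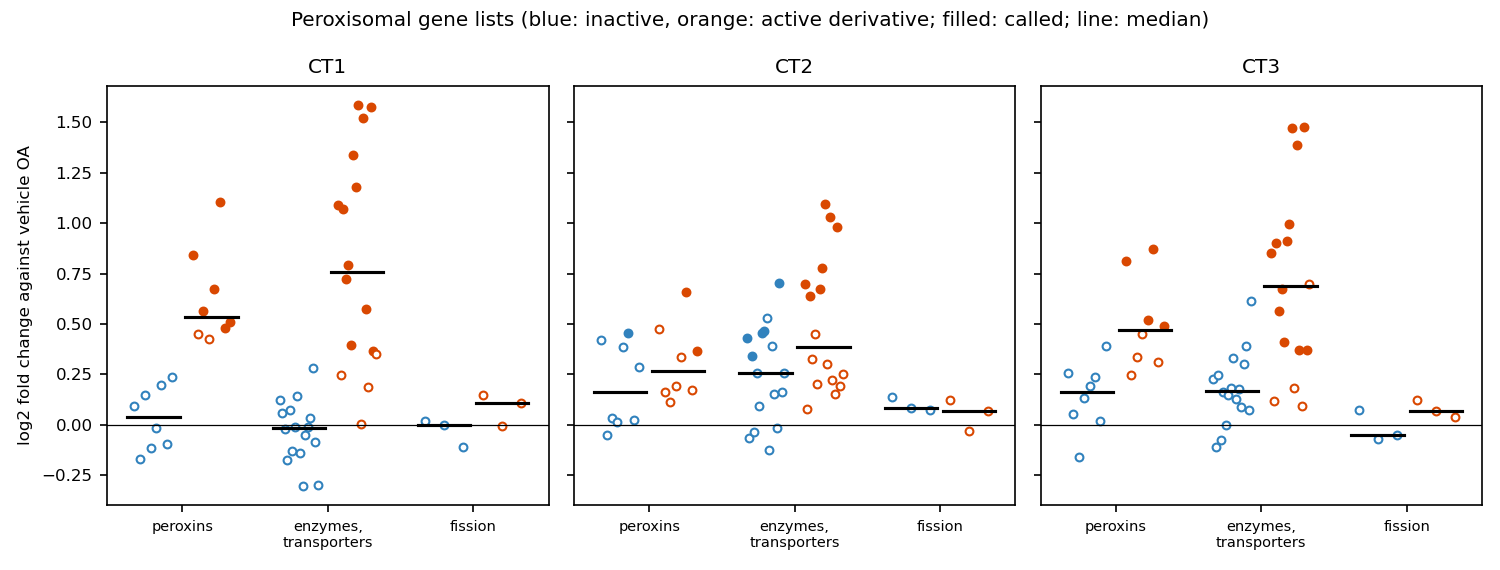
Log2 fold changes against vehicle OA with the inactive (blue) and active (orange) derivative of each chemotype for the peroxins, peroxisomal enzymes and transporters, and fission genes. Each point is a gene, filled where the adjusted p was under 0.05, and lines are medians; the median of the peroxins was 0.54, 0.27 and 0.47 with active CT1, CT2 and CT3 and 0.04, 0.16 and 0.16 with the inactive derivatives.

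The pattern of Pex14 over the 10 groups was set beside that of 7638 genes by Pearson's r of mean log2 CPM over 34 libraries. The points are 10 group means of one experiment, and r is given as a description. The 5 genes most like Pex14 were Gtpx (r = 0.995), a glutathione peroxidase, Acox3 (r = 0.994), an acyl-CoA oxidase, CG17746 (r = 0.993), Abcd3 (r = 0.993), which is Pmp70 of the list above, and GstT3 (r = 0.993), a glutathione S-transferase. Among the members Pex13 was closest (r = 0.967), then Pex5 (0.928), Pex2 (0.923), Pex16 (0.877), Pex10 (0.873), Pex11 (0.860) and Pex19 (0.798). By r, Pex13 ranked 90 and Pex19 509 among the 7638 genes, so many genes that are not peroxins were closer to Pex14. Of the other peroxins, Pex6 (0.9747) and Pex3 (0.955) were near Pex14, and Pex11c (0.286) was not. The receptor Pex19 was thus the member least like Pex14, and its difference with oleic acid without DMSO was 0.00 on the log2 scale (95% interval -0.14 to 0.13).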

How the data were processed

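RNA-Seq reads of poly(A) RNA were aligned by the authors with TopHat2 2.0.10 to BDGP Release 5, keeping at most 1 place per read, and counted by gene and strand with HTSeq 0.5.4p1. The deposited counts are raw read counts per gene. FPKM values were computed by the authors with Cufflinks 2.1.1, library by library, and deposited. The library with the fewest counts had 1208200, which limits precision for the low peroxins most. Total counts include the 18S rRNA pseudogene.

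Counts were tested with edgeR 4.0.16 in R 4.3.3 (TMM factors, filterByExpr by group, quasi-likelihood F test) in a fit of 22 libraries with DMSO and a fit of 16 control libraries, with Benjamini-Hochberg adjustment within each of 17 comparisons and a threshold of 0.05. The fit with DMSO was tested on simulated data for active CT1 against vehicle OA only. CPM values were scaled over all 36 libraries. Standard errors were derived from the F statistic, and 95% intervals use them with the fit's degrees of freedom. Libraries left out were found by matching FPKM values with the part of the study's per-sample table at hand. This rule was applied to the solvent control groups only.

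All 9 peroxins were named, with the other peroxins (some are not reported here), the listed genes called with all 3 active derivatives or highest or lowest with one, and the 5 genes most like Pex14. The members and lists were chosen with earlier results of these data known. Gene symbols come from reference tables of Release 6, which matched 16815 of the 17142 IDs. Alternatives were RLE factors, DESeq2 1.42.0, no filter on low counts, a fit with all libraries, a fit with just the groups being compared, a replicate block, limma 3.58.1 on log2(FPKM + 1) or log2(FPKM + 0.1), and leaving out each library. The tables of comparisons made by the authors were not used.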

Additional observations from a re-analysis of the deposited data

Results flagged for a closer look

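A check for a value far from the rest was run only in the groups without DMSO, as 18 sets of 6 libraries. It flagged 4, where chance gives about 1 in 20. Groups with DMSO were not checked. Pex10 was at 11.07 CPM in noOA replicate 1, with the next library at 8.941 CPM, and this library had 1766556 counts. Pex11 was at 20.41 CPM in OA replicate 6, below the next at 22.07 CPM. Pex13 was at 50.07 CPM in OA replicate 3, with the next at 39.35 CPM, and its call with oleic acid held without this library. Pex7 was at 0.1286 CPM in OA replicate 1, which is a single read beside 0 in the rest, so the rate of 1 in 20 does not apply to it. What sets these libraries apart was not tested.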

How the results depend on the processing

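The 28 calls of members kept their direction in all 254 values under other settings and in all 167 values with a library left out. Of the 254, 198 kept the call and 56 lost it, 46 with limma on FPKM and 8 with DESeq2. With active CT1 against vehicle OA these settings also called fewer of all genes, 381 to 435 with limma and 664 with DESeq2, and not 912. RLE factors, no filter and all mapped libraries lost none. The cause was not tested. The number of members called moved by over 1.5 times in these cases. With active CT2 against vehicle OA, DESeq2 and each limma setting called 1 and not 2, and with active CT3 each limma setting called 1 and not 4. With inactive CT2, limma and a fit of only the groups compared called 0 and not 1. Between active and inactive CT1, limma without a filter called 2 and not 7, and for CT3 DESeq2 and limma called 1 and not 2. Active CT1 against active CT2 gave 1 and not 3 with limma. Active CT1 against active CT3 gave 0 and not 1 with DESeq2 and limma. For oleic acid without DMSO, limma called 0 and not 2 at either pseudocount and without a filter. Smaller moves were those of active CT1 against vehicle OA (4 to 8 and not 6), active CT3 (3 with DESeq2, and 5 without a filter, with the block or with the compared groups alone, and not 4), active against inactive CT1 (6 with DESeq2 and 5 with filtered limma, and not 7) and active CT1 against active CT2 (2 with DESeq2 and not 3).

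Same-numbered libraries did not clearly deviate together (correlations of -0.11 to 0.10). Libraries of different numbers were not correlated as a reference, so this check does not decide whether the numbers pair them. With the replicate block, Pex14 was not called between active CT1 and active CT3 (0 and not 1, log2 difference 0.23, adjusted p = 0.0521, with 0.0121 to 0.239 over all alternatives), no other call was lost, and Pex11 was gained with active CT1 and with active CT3.

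With a library left out, the number called was 3 to 7 with active CT1 against vehicle OA, 1 to 2 with active CT2, 2 to 4 with active CT3 and 0 to 1 with inactive CT2. It was 5 to 7 between active and inactive CT1, 0 to 1 for CT2 (Pex14 without inactive CT2 replicate 1), 1 to 2 for CT3, 1 to 4 for active CT1 against CT2 and 0 to 1 for active CT1 against CT3. Depth limits Pex2 and Pex10 most, with 14 to 104 and 7 to 124 reads per library, and Pex7 could not be tested at all.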
